A study of Mus musculus with 2 samples.

Results

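The collagen genes expressed in the P12 optic nerve were compared between control mice and mice lacking the DNA-binding domain of Tcf7l2 in the oligodendrocyte (OL) lineage. A gene was counted as a collagen when its symbol had the form Col, a number, the letter a and a second number, which is the name of a single collagen chain. Names that the tables merged with commas were split, and rows of the same symbol were summed. This gave 44 collagens among 23951 symbols listed in both libraries. Of these, 34 reached 1 FPKM (sequenced fragments per unit of transcript length and library depth) in at least 1 library, out of 14199 such genes.

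RNA-seq was performed on optic nerves from mice labelled Tcf7l2 c/+; OLig1-cre (control) and Tcf7l2 c/c; OLig1-cre (cKO, called Tcf7l2ΔHMG by the study), with 1 library per genotype. Tcf7l2 is a transcription factor of the TCF/LEF family, and the floxed exon 11 encodes part of the HMG box with which it binds DNA. The Cre is driven by Olig1, which is active in OL-lineage cells, and the controls carried the same Cre and 1 floxed allele, so they were not wild-type. The number of animals behind each library is not given in the sources used here. With 1 library per genotype there is no replicate check, and no test, standard error or p-value was computed. The interval given with an FPKM is the confidence interval that Cufflinks wrote for that library. It covers fragment counting and assignment within the library and not the variation between animals.

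Collagens are secreted or membrane-bound proteins whose chains wind into a helix along repeats that begin with glycine. Fibrillar collagens form the cords of connective tissue, and type IV collagen forms the sheet that underlies endothelial and epithelial cells. FACIT collagens (fibril-associated collagens with interrupted triple helices) sit on the surface of fibrils, and a remaining set forms beaded filaments, hexagonal networks or membrane-anchored chains. In the optic nerve, collagen lies mainly in the meningeal sheath, in the septa and around vessels.

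The collagens did not move as 1 family. Of the 34 collagens at or above 1 FPKM, 8 were higher in the cKO by over 1.5-fold (23.5%) and 5 were lower by over 1.5-fold (14.7%). Among all 14199 genes, 15.4% were higher and 8.52% lower by the same cutoff. The chains that passed it upwards were Col6a1, Col6a2, Col8a2, Col12a1, Col14a1, Col23a1, Col25a1 and Col26a1, none of which is fibrillar or a basement membrane chain. The chains that passed it downwards were Col2a1, Col5a3, Col4a6, Col7a1 and Col20a1. Col7a1 and Col20a1 share their row with another gene, and without them 3 of 32 were lower. Col25a1 reached 1 FPKM only in the cKO. With 1 FPKM required in both libraries, 7 of 33 were higher and 5 lower, beside 12.2% and 7.22% of all genes. A difference in level can come from a different number of cells of a type or from a different amount of RNA per cell, and these cannot be told apart in whole nerve.

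The median log2 ratio of cKO to control was −0.05 over the 34 collagens and 0.05 over all genes, of which 90% lay between −0.83 and 1.18. Ratios were taken after 0.1 FPKM was added to both values, which understates the change of low genes. Non-overlapping Cufflinks intervals were seen for 15 collagens that were higher (44.1%) and 13 that were lower (38.2%). Over all genes, 30.0% and 22.3% did so. The interval was narrow for abundant genes, and in 6 collagens (Col1a1, Col1a2, Col3a1, Col6a1, Col6a2 and Col9a2) the FPKM of at least 1 library lay outside its own interval.

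The direction of several collagens depended on the scaling. Rows without a gene name, many of them short, held 70.7% of all FPKM of the control library and 80.7% of that of the cKO library. When each library was rescaled to a common sum over all rows, the all-gene median moved by −0.67 on the log2 scale to −0.62, and calls in the higher direction went from 64.4% to 7.52% of all calls. On that scale 0 of 34 collagens were higher and 19 lower by over 1.5-fold, beside 4.36% and 53.6% of all genes. This rescaling shifts all genes by nearly the same amount. The 8 collagens past the cutoff upwards therefore stayed above the all-gene median by construction, which is no check of them. Of the 15 collagens with a positive ratio in the deposited values, 7 stayed positive (Col6a1, Col6a2, Col8a2, Col12a1, Col23a1, Col25a1 and Col26a1). The other 8, which were Col1a1, Col1a2, Col3a1, Col5a1, Col5a2, Col9a2, Col14a1 and Col22a1, turned negative. No collagen changed sign when the libraries were scaled to the named rows, to the 75th percentile or to the median. All ratios that follow are on the scale of the deposited FPKM.

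**Figure D1:**
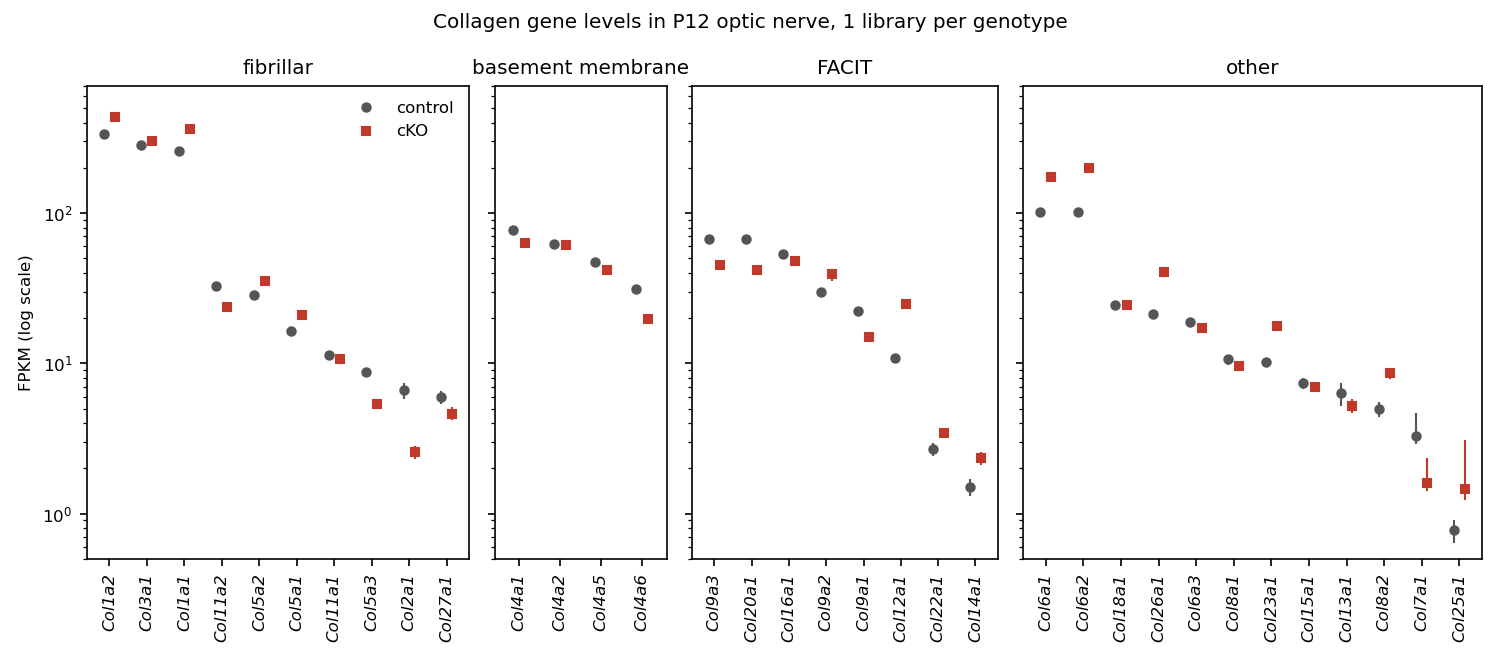
FPKM (log axis) of the 34 collagens at or above 1 FPKM in at least 1 library, by class, in the control and the cKO library (1 library each). Points are FPKM and bars are the Cufflinks intervals. Col1a2, Col1a1 and Col3a1 stood highest in both libraries, and Col6a1 and Col6a2 reached 174 and 200.1 FPKM in the cKO.

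The fibrillar collagens held most of the collagen signal. Col1a2, the second chain of type I collagen, was the highest collagen in both libraries, with an FPKM of 335 (control) and 438 (cKO). Col3a1, the chain of type III collagen that is laid down with type I in soft tissues, was 285 and 302. Col1a1, which pairs with Col1a2 in type I collagen, was 259 and 363. These 3 chains, with Col6a1 and Col6a2, took 61.0% of the summed collagen FPKM in the control and 69.7% in the cKO. The log2 ratios were 0.39 for Col1a2, 0.09 for Col3a1 and 0.49 for Col1a1, all within 1.5-fold. Thus the order of Col3a1 and Col1a1 changed, with a Col3a1 to Col1a1 ratio of 1.10 in the control and 0.834 in the cKO, while the Col1a1 to Col1a2 ratio was 0.773 and 0.828.

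The minor fibrillar chains, which start or limit fibril growth, went in different directions. Type V collagen seeds type I fibrils. Its chains Col5a1 (16.3 and 21.0 FPKM, log2 0.36) and Col5a2 (28.5 and 35.0, log2 0.30) were higher in the cKO within the cutoff. Col5a3, the least common type V chain, was 8.72 in the control (interval 8.09 to 9.35) and 5.38 in the cKO (4.98 to 5.79), a log2 ratio of −0.69. The Col5a1 to Col5a3 ratio was 1.87 in the control and 3.90 in the cKO. Type XI collagen plays the seeding role in cartilage fibrils, and the cartilage-type chains were lower or level. Col2a1, the main cartilage fibril chain, was 6.60 in the control (5.81 to 7.36) and 2.55 in the cKO (2.3 to 2.79). Its log2 ratio of −1.34 was the lowest of the 34 collagens, and 2.43% of all genes had a lower one. Col11a1 was 11.3 and 10.7, with overlapping intervals, and Col11a2 was 32.5 and 23.6 (log2 −0.46). Col27a1, a short fibrillar chain of growth cartilage, was 5.96 and 4.61 (log2 −0.36). Across the 10 fibrillar chains past the FPKM filter, 0 were higher and 2 lower by over 1.5-fold, beside 15.4% and 8.52% of all genes. The fibrillar median log2 ratio was 0.0050. Their summed level was 988 FPKM in the control and 1206 in the cKO, and most of that difference lay in the type I chains.

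The 4 basement membrane chains past the filter all had negative ratios, with a median of −0.23, and their sum was 218 FPKM in the control and 187 in the cKO. They made up 12.3% of the collagen FPKM in the control and 8.81% in the cKO. Col4a1 and Col4a2 form the type IV network found in nearly all basement membranes, including those of brain vessels. Col4a1 was 76.9 FPKM in the control (74.9 to 78.6) and 63.6 in the cKO (62.1 to 64.9), a log2 ratio of −0.27. Col4a2 was 62.3 (61.5 to 64.5) and 61.6 (61.0 to 63.7), so its intervals overlapped. Col4a5 and Col4a6 form a second network, and they too differed from each other. Col4a5 was 47.4 and 41.7 (log2 −0.19), within the cutoff. Col4a6 was 31.4 in the control (29.7 to 33.1) and 19.7 in the cKO (19.2 to 20.6), a log2 ratio of −0.67. The Col4a5 to Col4a6 ratio was 1.51 in the control and 2.11 in the cKO. Col4a3 and Col4a4, known from the kidney filter, stayed below 1 FPKM.

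The type IV genes lie in head-to-head pairs. In the positions of the tables (mm9), Col4a1 (chr8:11198423-11312826, minus strand) and Col4a2 (chr8:11312829-11449287, plus strand) were 2 bases apart. The other type IV pairs were also divergent, with 71 bases between Col4a4 and Col4a3 on chromosome 1 and 1304 bases between Col4a6 and Col4a5 on chromosome X. Strands were taken from GENCODE M21 by symbol. The 300-base RefSeq promoters (250 bases before and 50 from the start, GRCm38.p6) of Col4a1 (chr8:11312777-11313076, minus strand) and Col4a2 (chr8:11312555-11312854, plus strand) overlap by 78 bases. They are shown because these chains are read outwards from the same DNA yet differed in log2 ratio (−0.27 and −0.02). Each is printed 5′ to 3′ on its own strand, and capitals mark the shared 78 bases, which read as the reverse complement of each other.
Col4a1 promoter: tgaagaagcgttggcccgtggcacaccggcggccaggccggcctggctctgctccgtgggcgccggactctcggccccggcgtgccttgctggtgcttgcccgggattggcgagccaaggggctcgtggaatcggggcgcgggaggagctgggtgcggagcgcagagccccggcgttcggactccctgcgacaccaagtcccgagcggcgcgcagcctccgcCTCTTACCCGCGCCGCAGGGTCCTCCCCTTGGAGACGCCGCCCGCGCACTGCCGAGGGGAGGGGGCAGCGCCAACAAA
Col4a2 promoter: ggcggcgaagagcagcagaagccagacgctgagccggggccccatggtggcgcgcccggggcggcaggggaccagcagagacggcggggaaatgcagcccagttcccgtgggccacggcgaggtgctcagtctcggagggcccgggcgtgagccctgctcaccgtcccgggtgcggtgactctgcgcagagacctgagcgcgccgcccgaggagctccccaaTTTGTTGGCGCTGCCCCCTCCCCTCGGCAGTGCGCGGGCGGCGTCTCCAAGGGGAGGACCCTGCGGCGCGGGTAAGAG

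Among the 34 collagens, the highest log2 ratio belonged to a FACIT chain. Col12a1, which coats type I fibrils, was 10.8 FPKM in the control (10.3 to 11.4) and 24.6 in the cKO (24.3 to 25.6), 2.27-fold higher. Its log2 ratio was 1.18, and 5.02% of all genes had a higher one. Col14a1, a close relative of Col12a1 that also binds fibrils, was 1.496 (1.30 to 1.69) and 2.33 (2.12 to 2.55), a log2 ratio of 0.61 that lay just past the cutoff of 0.58. Among the other FACIT chains past the filter, Col16a1 was 53.2 and 47.7 (log2 −0.16), and Col22a1, found at tissue junctions such as muscle and tendon, was 2.69 and 3.42 (log2 0.33). Col20a1 was listed at 67.0 and 41.9 (log2 −0.68), but its row also covers Arfgap1, so the value cannot be assigned to either gene. The FACIT class as a whole had a median log2 ratio of 0.09, and its sum was 255 and 219 FPKM. By over 1.5-fold, 2 of 8 were higher and 1 lower, beside 15.4% and 8.52% of all genes. The lower chain was the shared Col20a1 row. The median was 0.33 without the merged row, −0.37 over chains of at least 5 FPKM and −0.16 without chains whose row kind differed between the libraries, so its sign depended on which chains were counted.

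Type IX collagen, a FACIT made of 3 different chains that decorates cartilage-type fibrils, showed a split among its chains. Col9a1 was 22.3 FPKM in the control (21.0 to 23.6) and 14.9 in the cKO (14.0 to 15.8). Col9a3 was 67.6 (62.5 to 67.7) and 45.1 (41.7 to 45.2). Both had a log2 ratio of −0.58 and lay just inside the cutoff, at 1.496-fold and 1.497-fold lower. Col9a2 went the other way, from 29.9 (28.3 to 31.6) to 39.0, although that value lay above its own interval of 35.2 to 38.3. The Col9a3 to Col9a2 ratio was 2.26 in the control and 1.16 in the cKO, whereas the Col9a1 to Col9a3 ratio was 0.330 in both.

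The promoters of the family were searched on both strands for the TCF/LEF core CTTTGAT, its variant CTTTGTT and, for comparison, the CCAAT box. RefSeq (GRCm38.p6) gave 38 promoters for 35 of the 44 collagens. CTTTGAT lay in 1 of them (2.63%), the promoter of Col9a2, and in 3.73% of 32851 promoters of all genes. CTTTGTT lay in 2 (Col20a1 and Col28a1; 5.26%) and in 5.85% of all promoters. CCAAT lay in 13 (34.2%), those of Col4a1 and Col4a2 included, and in 37.4% of all promoters. These shares are descriptions of 300-base windows. The Col9a2 promoter (chr4:121039316-121039615, plus strand) is shown as the single member with CTTTGAT, in capitals. Any link between the motif and the Col9a2 ratio was not tested.
Col9a2 promoter: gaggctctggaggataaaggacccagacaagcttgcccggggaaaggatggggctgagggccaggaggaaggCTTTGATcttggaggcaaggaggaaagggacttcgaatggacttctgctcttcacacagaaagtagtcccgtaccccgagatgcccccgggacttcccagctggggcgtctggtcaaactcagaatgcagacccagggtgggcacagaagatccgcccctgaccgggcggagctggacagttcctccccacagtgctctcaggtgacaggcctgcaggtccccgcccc

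**Figure D2:**
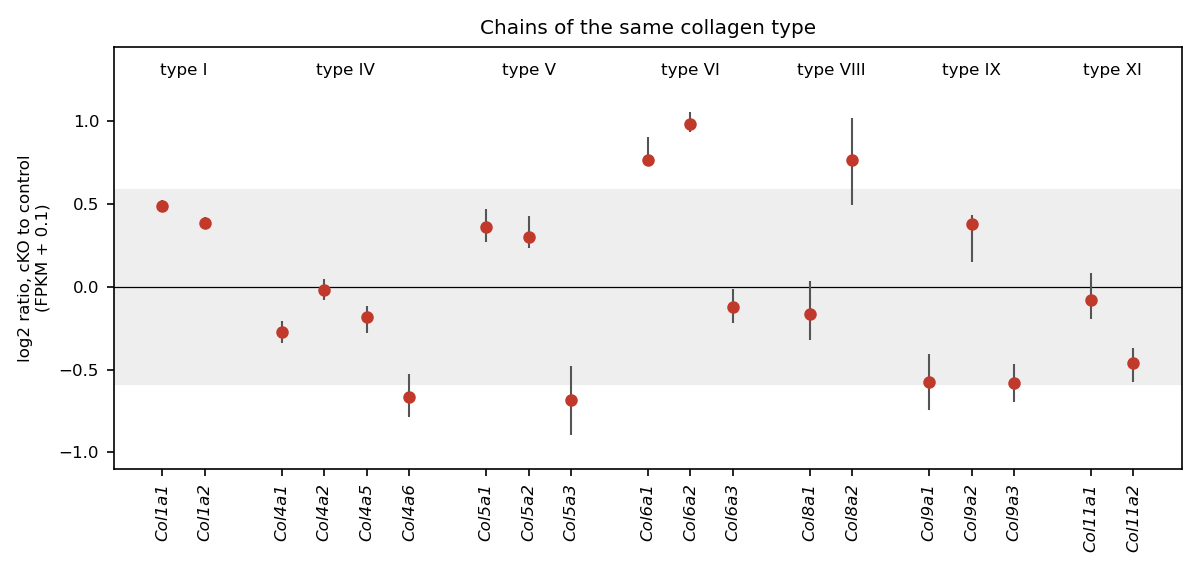
Log2 ratio of cKO to control FPKM (0.1 added) for the chains of collagen types I, IV, V, VI, VIII, IX and XI at or above 1 FPKM, with lines for the widest range that the Cufflinks interval bounds allow. The grey band is within 1.5-fold. Col6a2 (0.99) and Col6a1 (0.76) stood apart from Col6a3 (−0.12), and Col9a2 (0.38) from Col9a1 and Col9a3 (−0.58 each).

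Of the classes, the remaining chains had the highest share past the cutoff upwards, 6 of 12. With 1 lower, this stood beside 15.4% and 8.52% of all genes. Col25a1, 1 of the 6, reached 1 FPKM only in the cKO. The class median log2 ratio was 0.38, or −0.0064 with 1 FPKM required in both libraries. The class sum was 311 FPKM in the control and 507 in the cKO. No chain lay near 0.38, since 6 had log2 ratios from 0.76 to 0.99 and the other 6 were at −0.01 or lower. Most of that sum was type VI collagen, which forms beaded filaments around cells in connective tissue. Col6a1 was 102 FPKM in the control, slightly above its own interval (95.4 to 100.4), and 174 in the cKO (173 to 179). Col6a2 was 101 in the control (98.9 to 105) and 200.1 in the cKO (200.1 to 206), 1.98-fold higher. Col6a3, the third and longest chain of the main type VI molecule, was 18.7 (18.1 to 19.6) and 17.2 (16.8 to 17.96). The log2 ratios were thus 0.76 and 0.99 for the first pair of chains and −0.12 for Col6a3. The Col6a2 to Col6a3 ratio was 5.39 in the control and 11.6 in the cKO. Col6a1 and Col6a2 are neighbours on chromosome 10, on the same strand and 85387 bases apart. Col18a1, a further 325947 bases away, was 24.4 and 24.3.

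Type VIII collagen builds hexagonal sheets under the corneal endothelium and around vessels. Its chains also differed, with Col8a1 at 10.7 and 9.53 FPKM (log2 −0.16, intervals overlapping) and Col8a2 at 4.98 (4.42 to 5.51) and 8.55 (7.80 to 9.07), a log2 ratio of 0.77. Col18a1 and Col15a1, the basement membrane-associated multiplexins whose ends release endostatin and a like fragment, were level. Col15a1 was 7.37 and 6.99, and the intervals of both genes overlapped. Among the membrane-spanning collagens, Col23a1 was 10.2 (9.38 to 10.8) and 17.7 (16.8 to 18.4), a log2 ratio of 0.80. Col25a1, a neuronal chain first found in amyloid plaques, was 0.777 (0.641 to 0.913) and 1.46 with a wide interval (1.24 to 3.07), a log2 ratio of 0.83. Col13a1, a chain of the neuromuscular junction, was 6.30 and 5.22 (log2 −0.27, intervals overlapping). Col26a1, a short secreted collagen, was 21.3 (20.0 to 22.6) and 40.7 (39.5 to 42.6), a log2 ratio of 0.93. Col7a1, the anchoring fibril chain of skin, was 3.28 (2.92 to 4.66) and 1.61 (1.41 to 2.35), a log2 ratio of −0.98, on a row that also covers Mir711.

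**Figure D3:**
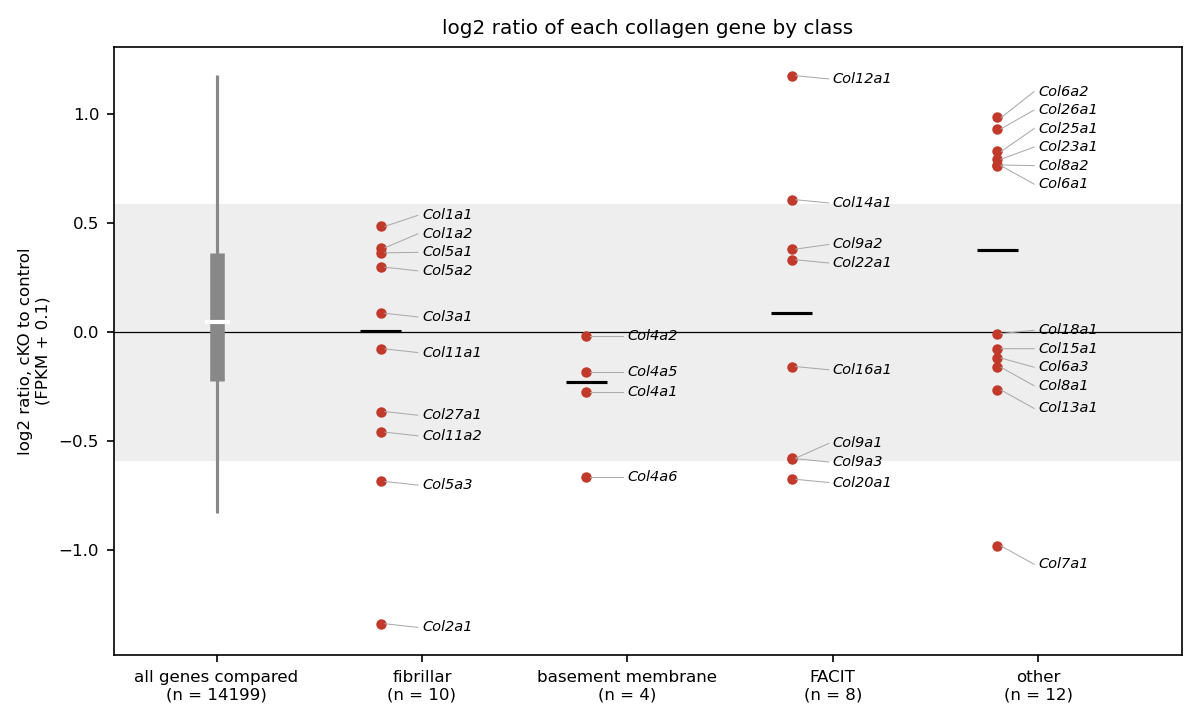
Log2 ratio of cKO to control FPKM (0.1 added) of the 34 collagens by class. The black bar is the class median, the grey bar at the side spans the middle 90% of all 14199 genes past the filter (thick part, the middle 50%), and the grey band is within 1.5-fold. Class medians ran from −0.23 for basement membrane chains to 0.38 for the remaining chains.

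The other 10 collagens stayed below 1 FPKM in both libraries and entered no count of ratios, levels or intervals above. They were Col4a3, Col4a4, Col6a4, Col6a5, Col6a6, Col10a1, Col17a1, Col19a1, Col24a1 and Col28a1, and the highest value among them was 0.699 FPKM, for Col4a3 in the cKO. By the level of 3 fragments on a 1 kb transcript, 0.109 FPKM in the control and 0.0751 in the cKO, several of these values rest on few fragments. Their FPKM was higher in the cKO for 7 and lower for 3, and the intervals did not overlap for 3 of the 10. These were Col4a3 (0.276 and 0.699), Col6a5 (0.092 and 0.325) and Col28a1 (0.225 and 0.050). The same shares over all genes below 1 FPKM are not given here, so these counts are not read as a result about the collagens. Col10a1, the chain of hypertrophic cartilage, was listed at 0 in the control and at 0.017 in the cKO.

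Genes that make, process, bind and degrade collagen were read next, from a list of 60 genes of which 53 reached 1 FPKM. Of these, 18 were higher by over 1.5-fold (34.0%) and 3 lower, with a median log2 ratio of 0.35, beside 15.4% and 8.52% of all genes. With all rows rescaled to a common sum, 1 of the 53 was higher and 17 were lower, beside 4.36% and 53.6% of all genes. In hydroxylation and folding, 4 of 19 were higher and 1 lower, shares close to those of all genes. Serpinh1 (HSP47), the chaperone specific to collagen, was 149 FPKM in the control and 243 in the cKO (log2 0.70). P4ha3, a catalytic subunit of prolyl 4-hydroxylase, was 19.5 and 30.6. Crtap, part of the prolyl 3-hydroxylase complex, was 20.7 and 31.9, and its relative Leprel2, on a merged row, was 21.1 and 32.9. The main hydroxylases lay within the cutoff. P4ha1 was 17.5 and 17.0, P4ha2 was 17.95 and 22.5, and the shared subunit P4hb was 158 and 155. The lysyl hydroxylases Plod1 (48.5 and 44.5) and Plod2 (15.8 and 14.97) were likewise close, and Colgalt2, which adds galactose to hydroxylysine, was 3.86 and 2.002.

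In propeptide processing, 4 of 7 were higher and 1 lower, beside 15.4% and 8.52% of all genes. With all rows rescaled to a common sum, 0 of 7 were higher and 2 lower, beside 4.36% and 53.6% of all genes. Adamts2, which removes the amino-terminal propeptide of types I to III, was 10.4 FPKM and 18.9 (log2 0.85). Pcolce, which enhances removal of the carboxy-terminal propeptide, was 58.9 and 101 (log2 0.78), and the related Pcolce2 was 1.33 and 2.06 with overlapping intervals. The tolloid-like proteases went apart, with Tll1 at 1.42 and 2.58 and Tll2 at 2.03 (0.907 to 3.16) and 0.15. Tll2 reached 1 FPKM only in the control, where its interval was wide. Bmp1, also in this list, was 56.4 and 48.1 (log2 −0.23), within the cutoff. Of the 4 crosslinking oxidases past the filter, Loxl1 was past the cutoff, at 15.8 and 26.8 (log2 0.75), and Lox was 24.1 and 33.7 (log2 0.48).

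Among fibril-binding matrix proteins, 4 of 8 were higher and 0 lower, all of them small leucine-rich proteoglycans. Dcn was 137 FPKM and 235 (log2 0.78), and Fmod was 103 and 187 (log2 0.86). Ogn was 40.2 and 65.4, and Prelp was 34.8 and 62.3. Sparc, a glial and fibroblast protein that binds collagen, was 992 and 1267 (log2 0.35), within the cutoff. Of 9 receptors, 3 were higher and 1 lower. The collagen-binding integrin chain Itga10 was 4.35 and 16.7 (log2 1.91), the discoidin receptor Ddr2 was 10.1 and 17.7 (log2 0.81), and the uptake receptor Mrc2 was 18.2 and 40.5 (log2 1.15). Ddr1, the discoidin receptor that OLs express, was 146 and 121 (log2 −0.27). The inhibitory receptor Lair1 was 3.32 in the control and was listed at 0 on a merged row in the cKO, so no fold is given. It is the 1 receptor, and 1 of the 3 pathway genes, counted as lower, although its intervals overlapped (2.91 to 3.72 and 0 to 3.84). In turnover, 2 of 6 were higher and 0 lower, namely the gelatinase Mmp2 (32.0 and 73.8, log2 1.20) and the protease inhibitor Timp1 (11.3 and 18.6). Over all genes, 15.4% were higher and 8.52% lower. With all rows rescaled to a common sum, 0 of 8 fibril-binding, 1 of 9 receptor and 0 of 6 turnover genes were higher. On that scale 1, 4 and 0 of them were lower, beside 4.36% higher and 53.6% lower over all genes.

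Markers of the cells that make collagen also moved between the libraries. Of 12 leptomeningeal fibroblast markers, 10 were higher by over 1.5-fold and 0 lower, beside 15.4% and 8.52% of all genes. All 12 had positive ratios, none was at 0, the median was 0.81, and their summed level was 7276 FPKM in the control and 15025 in the cKO. With all rows rescaled to a common sum, 1 of the 12 was higher by over 1.5-fold, 9 had positive ratios and the median was 0.14. On that scale 4.36% of all genes were higher and 53.6% lower, and the all-gene median was −0.62. Ptgds, which made up most of the summed level in both libraries, was 6009 and 12780. Igf2 was 686 and 1258, and Islr was 165 and 276. Of 8 endothelial markers, 1 was higher and 3 lower by over 1.5-fold, with a median of −0.54 and sums of 159 and 126. The marker that was higher was Cdh5, the endothelial cadherin, at 20.9 and 31.6 (log2 0.59), just past the cutoff of 0.58. Scaled to the named rows or to the 75th percentile, 0 of the 8 were higher, and 5 and 4 were lower. The tight junction gene Cldn5 was 64.1 and 43.7 (log2 −0.55, within the cutoff). Esam, 1 of the 3 that were lower, was 16.4 and 10.4 (log2 −0.65). Mural cell markers were mixed, with 2 of 8 higher, 1 lower, a median of 0.24 and sums of 268 and 383, and Tagln was listed at 0 in the control. The part of these cells in the collagen values was not tested.

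The OL markers, which check the tissue, were abundant in both libraries and lower in the cKO, 6 of 8 by over 1.5-fold, with sums of 31576 and 18080 FPKM. Over all genes, 15.4% were higher and 8.52% lower by that cutoff. Astrocyte sums were 4912 and 5735 (1 of 7 higher), and microglia sums were 235 and 312 (0 of 7 past the cutoff). Red blood cell sums were 222 and 562 with 4 of 4 higher, where Hba-a1 and Hba-a2 share 1 row that was counted for each. Other tissues that can cling to the nerve were low, with sums of 16.3 and 19.5 for skeletal muscle, 45.6 and 59.6 for cartilage (mostly Lect1 and Sox9), 3.50 and 2.27 for Schwann cells and 11.4 and 14.5 for retina. Tcf7l2 itself was 17.8 FPKM (16.7 to 18.9) in the control and 14.6 (13.9 to 15.4) in the cKO, but a value over the whole gene is no check of a deletion of 1 exon. The depth read from the interval bounds of short rows was 27624000 and 39938000 fragments, so low collagens were measured with more counting error in the control.

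**Figure D4:**
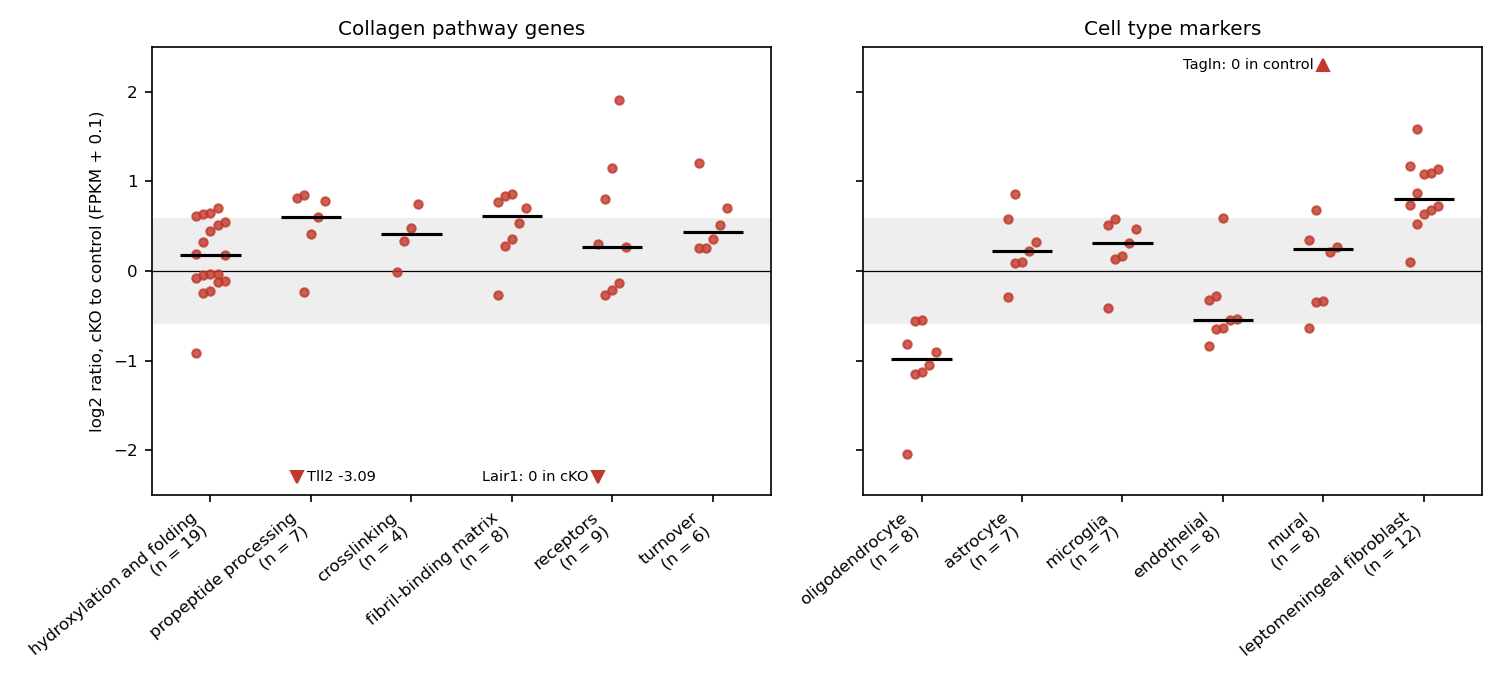
Log2 ratio of cKO to control FPKM (0.1 added) of collagen pathway genes by step and of 6 of the cell type marker lists. Black bars are list medians, the grey band is within 1.5-fold, n counts genes past the filter, and triangles mark genes beyond the axis or listed at 0 in 1 library. Of the 6 marker lists drawn, leptomeningeal fibroblast markers had the highest median (0.81) and OL markers the lowest (−0.98).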

How the data were processed

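RNA was taken from optic nerves of control and cKO mice at P12, with 1 library each. Reads had been aligned by the authors with TopHat (default settings), and Cufflinks gave the FPKM of each row. The build named in the submitters' processing notes is mm9, and tool versions and the strand setting are not given in the sources used here. The deposited FPKM tables hold reference and assembled rows with interval bounds.

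FPKM was summed per symbol. Symbols with status OK in both libraries and at least 1 FPKM in at least 1 were compared by the log2 ratio after 0.1 was added, with a cutoff of 1.5-fold as in the study. Every collagen past that filter is named, and so are the pathway genes past the cutoff, 11 fixed pathway genes and up to 3 markers per list. Members and lists were chosen with earlier results of these data known. Depth was read from the interval bounds of rows under 100 bases. The computation was checked on simulated data. Python 3.11.15, numpy 2.4.6, pandas 2.3.3 and matplotlib 3.10.9 were used.

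Starts are counted from 1. Fragments of genes that overlap on opposite strands could not be told apart.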

Additional observations from a re-analysis of the deposited data

How the results depend on the processing

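The counts and medians were recomputed under 14 alternative settings and 3 chosen after seeing the data. Of the 104 values this gave, 80 moved by less than the counting spread or kept their count within 1.5-fold. That spread is the median half-width of single-gene ratio intervals, not the spread of a median. Keeping the highest row of each symbol, or rows of any status, could not change a collagen value. Each collagen had 1 row per library, with status OK, so these settings count as unchanged by construction. With no filter on low values the median log2 ratio was −0.10 for basement membrane chains and 0.058 for the remaining chains. With at least 1 FPKM required in both libraries, which removes Col25a1, the median of the remaining chains was −0.0064, a change of sign. With at least 5 FPKM, the FACIT median was −0.37. Rescaling all rows to a common sum gave 0 collagens higher and 19 lower, beside 4.36% and 53.6% of all genes. The medians were then −0.71 for all collagens, −0.66 for fibrillar, −0.90 for basement membrane, −0.57 for FACIT and −0.29 for the remaining chains. The all-gene median was −0.62. A fold above 2 left 1 higher (Col12a1) and 1 lower (Col2a1), beside 6.87% and 3.68% of all genes. Intervals that did not overlap gave 15 and 13, beside 30.0% and 22.3%. With types VII, XV and XVIII moved to the basement membrane class, the median of the remaining chains was 0.77.

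Of the alternatives chosen after seeing the data, leaving out the collagens on merged rows gave 3 lower, a FACIT median of 0.33 and 0.76 for the remaining chains. Leaving out those whose row was assembled in 1 library and a reference row in the other gave −0.16 and −0.041. Leaving out those outside their own interval gave −0.36 for fibrillar, −0.16 for FACIT and −0.041 for the remaining chains. The median of the remaining chains thus rests on few genes. Centring on the median, scaling to named rows and scaling to the 75th percentile each gave 7 higher and 7 lower. Over all genes these settings gave, in turn, 13.8%, 13.1% and 14.0% higher and 9.78%, 10.6% and 9.56% lower. Replicate error is unknown, and low chains were limited by depth. No paired analysis was possible because each genotype has 1 library.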

Other observations

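Rows without a gene name lay within 5 kb of some collagens and were not added to their values. There were 4 such rows at 3 collagens in the control and 17 at 6 collagens in the cKO. The highest was a row of 122 bases near Col20a1 at 135 FPKM in the cKO, and a row of 157 bases near Col23a1 was listed at 23.8 FPKM in the cKO. For 10 collagens the row was an assembled one in 1 library and a reference one in the other, 8 of them among the 34 chains compared (Col2a1, Col5a2, Col6a1, Col9a1, Col9a2, Col11a1, Col22a1 and Col23a1). The part of these differences in the ratios was not tested.

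Col3a1 and Col5a2 are convergent neighbours on chromosome 1, with 24624 bases between them, and had log2 ratios of 0.09 and 0.30. Col9a3 and the merged row of Col20a1 lie 345039 bases apart on chromosome 2 and had log2 ratios of −0.58 and −0.68. In all, 12 pairs of collagens lay within 1 Mb of each other.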
